A study of Mus musculus with 2 samples.

Results

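The 37 rows described here are all genes of the mouse mitochondrial genome in a table of 32813 gene symbols, chosen because their symbol starts with mt-. They are 2 ribosomal RNA (rRNA) genes, 22 transfer RNA (tRNA) genes and 13 protein genes, and they were compared by these classes. The series holds 1 group, with 2 libraries of total RNA from type 5 bipolar cells, replicate 1 and replicate 2. The cells came from dissociated retina of mice of the Htr3a-GFP line, whose GFP reports activity of the promoter of Htr3a, a serotonin receptor gene, and were collected by fluorescence-activated sorting into RNAlater. The sources used here do not give age, sex or the number of animals per library. No other cells were profiled, so each value is a level in the sorted cells. Values are in TPM, a read share per unit of gene length scaled to the same total in each library.

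Mitochondria keep a small circular genome that is transcribed from both strands into long precursor RNAs. The tRNAs lie between most of the other genes, and cutting them out at their ends frees the rRNAs and messenger RNAs. All its proteins are subunits of the respiratory chain and ATP synthase, which are completed by many subunits of the nuclear genome. Complex II is built from nuclear genes alone. Bipolar cells pass signals from photoreceptors to the inner retina by graded transmitter release, and their terminals hold mitochondria.

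Transcripts of the labelled cells were present beside those of other cells. The test described below called 55.5% of all genes tested above 1 TPM. It called 5 of 7 type 5 markers and 5 of 5 ON bipolar markers above that line. It also called 7 of 9 rod photoreceptor, 5 of 6 Muller glia and 3 of 3 red blood cell markers. Htr3a had 90.9 TPM in replicate 1 and 88.8 TPM in replicate 2. The summed levels were 680.3 and 759 TPM for type 5, 4659.9 and 4637 TPM for ON bipolar, 1596 and 1638 TPM for rod, 187 and 277 TPM for Muller glia and 56.4 and 55.2 TPM for red blood cell markers in replicate 1 and replicate 2. The depth of the libraries is unknown because TPM keeps none. A value of 0 can be a failed estimate: Rps27, which encodes a protein of the cytosolic ribosome, had 838 TPM in replicate 2 and a listed value of 0 in replicate 1.

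Several sequences bear on how the values below can be read, and are given from GENCODE M21 on GRCm38 (also called mm10), 5′ to 3′ on the strand of the gene. The first set shows tRNA genes at the extremes of the range and those of equal length, with the anticodon in capitals. It was located as the middle of a 7-base loop between stem positions that pair, with letters that read the codons of the amino acid. In order, they carry valine (chrM:1025-1093, plus strand), leucine (chrM:2676-2750, plus), serine (chrM:6870-6938, minus), tyrosine (chrM:5260-5326, minus), threonine (chrM:15289-15355, plus), histidine (chrM:11546-11612, plus) and proline (chrM:15356-15422, minus).
mt-Tv: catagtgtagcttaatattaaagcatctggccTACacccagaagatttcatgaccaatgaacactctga
mt-Tl1: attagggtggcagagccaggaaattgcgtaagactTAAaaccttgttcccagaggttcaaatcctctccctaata
mt-Ts1: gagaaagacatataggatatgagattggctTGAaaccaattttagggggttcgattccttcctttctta
mt-Ty: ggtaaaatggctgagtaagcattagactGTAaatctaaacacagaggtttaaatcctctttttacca
mt-Tt: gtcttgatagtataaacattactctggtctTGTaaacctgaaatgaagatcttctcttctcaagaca
mt-Th: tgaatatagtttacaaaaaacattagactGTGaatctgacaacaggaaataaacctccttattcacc
mt-Tp: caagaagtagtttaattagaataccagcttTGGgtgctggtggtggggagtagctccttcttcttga

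The second set shows where genes share bases, in capitals. It gives the last 60 bases of mt-Atp8, of which 43 also open mt-Atp6 (chrM:7910-7969, plus strand), the last 30 bases of mt-Nd4l, of which 7 also open mt-Nd4 (chrM:10144-10173, plus), and the last 30 bases of mt-Nd5, of which 14 are the complement of the end of mt-Nd6 (chrM:13536-13565, plus).
mt-Atp8 and mt-Atp6: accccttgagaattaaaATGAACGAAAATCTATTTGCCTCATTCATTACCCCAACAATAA
mt-Nd4l and mt-Nd4: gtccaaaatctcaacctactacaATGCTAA
mt-Nd5 and mt-Nd6: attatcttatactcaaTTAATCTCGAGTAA
The annotation has 9 neighbouring pairs that share bases, 3 of them on opposite strands. The sources used here do not say whether counting used strand, so reads over such bases, and reads of a precursor across a tRNA gene on the other strand, cannot be assigned to 1 strand from the table.

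The rRNAs made up most of the mitochondrial signal. RNA of the mitochondrial genome took 17.3% of all TPM in replicate 1 and 24.6% in replicate 2, a mean of 21.0% ± 5.18 (SD, n = 2). The 2 rRNA rows took 13.2% and 19.7%, the 13 protein genes 3.84% and 4.68%, and the 22 tRNA genes 0.291% and 0.214% in replicate 1 and replicate 2. Within the mitochondrial rows the rRNAs thus held 76.2% (replicate 1) and 80.1% (replicate 2) of the signal. The rRNA share and, by less, the protein gene share were higher in replicate 2, and the tRNA share was lower there. The libraries are of 1 group, and no test was made between them, since the smallest two-sided p of an exact sign test on 2 values is 0.5.

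**Figure D1:**
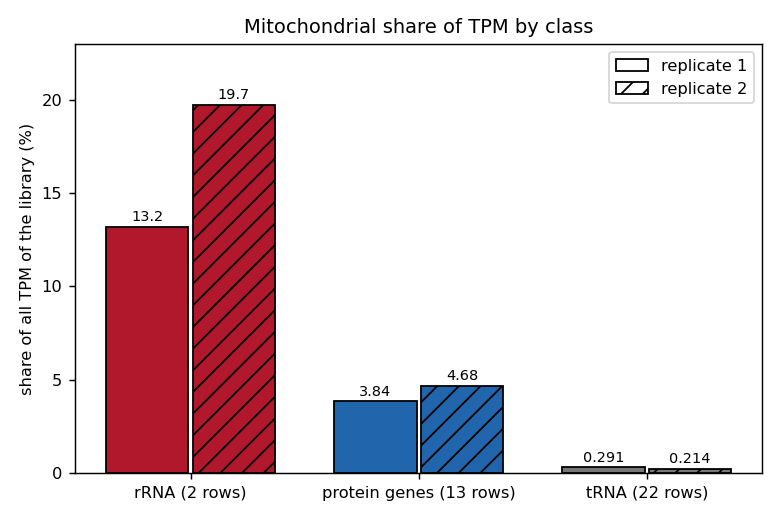
Share of all TPM of each library (%, vertical axis) held by the rRNA, protein and tRNA genes of the mitochondrial genome, with plain bars for replicate 1 and hatched bars for replicate 2. The rRNA bars stand at 13.2% and 19.7%, above 3.84% and 4.68% for protein genes and 0.291% and 0.214% for tRNA genes.

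mt-Rnr2, the RNA of the large mitochondrial ribosomal subunit, had the highest value of the whole table in both libraries, with 93969 TPM in replicate 1 and 158277 TPM in replicate 2. mt-Rnr1, the RNA of the small subunit, had rank 2 in both, with 38010 TPM in replicate 1 and 39211 TPM in replicate 2. The higher rRNA share of replicate 2 therefore lay almost wholly in mt-Rnr2, and mt-Rnr1 was nearly level. The subunits carry the rRNAs in equal number, yet the ratio of mt-Rnr2 to mt-Rnr1 was 2.47 in replicate 1 and 4.04 in replicate 2. Both genes lie on the plus strand, mt-Rnr1 over 955 bases at chrM:70-1024 and mt-Rnr2 over 1582 bases at chrM:1094-2675.

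mt-Tv, the tRNA gene between the rRNA genes, stood at 9.51 TPM in replicate 1 and 5.27 TPM in replicate 2. It abuts both rRNA genes and comes from the same precursor, and its level was under that of mt-Rnr1 by 3997 times in replicate 1 and 7440 times in replicate 2. mt-Tl1, a leucine tRNA gene that abuts the other end of mt-Rnr2, had 154 TPM in replicate 1 and 286 TPM in replicate 2. The tRNA genes at the ends of the most abundant RNA thus differed in TPM. The ratio of mt-Tl1 to mt-Tv was 16.2 in replicate 1 and 54.3 in replicate 2. mt-Tv and mt-Tl1 are 69 and 75 bases long, and how fully RNAs this short entered the libraries was not tested. Among the 69-base tRNA genes with a nonzero value, mt-Tv was the lowest in both libraries. The number of reads behind its values is unknown, so the size of each ratio to mt-Tv is uncertain.

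**Figure D2:**
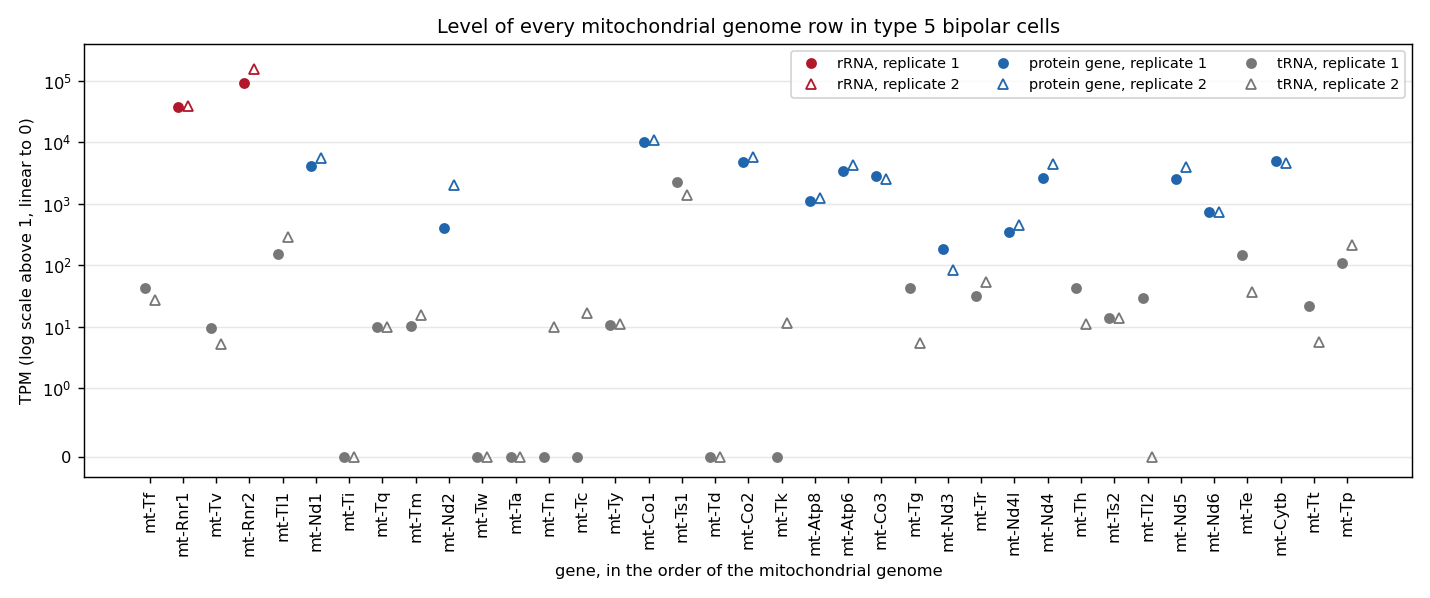
TPM (vertical axis, logarithmic above 1 and linear down to 0) of each of the 37 mitochondrial rows in the order of the genome (horizontal axis), with filled circles for replicate 1, open triangles for replicate 2 and colours for the classes. The rRNA genes stand at 38010 TPM or more and the protein genes between 84.2 and 10769 TPM, while mt-Ts1 is the single tRNA gene above 1000 TPM and 4 tRNA genes lie at 0 in both libraries.

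All 13 protein genes were expressed above 10 TPM. Expression above a line of 1 TPM was tested with limma on log2(TPM + 1) over all genes above 0 in either library (one-sided, Benjamini-Hochberg adjusted p under 0.05), which called 55.5% of all genes tested, and 32.4% above a line of 10 TPM. Of the mitochondrial rows 33 of 37 entered the fit, and 29 were called above 1 TPM: 2 of 2 rRNA genes, 13 of 13 protein genes and 14 of 22 tRNA genes. Above 10 TPM the counts were 2 of 2, 13 of 13 and 7 of 22. The tRNA counts are 63.6% and 31.8% of all 22 genes. Only 18 of the 22 entered the fit, and the background shares count only genes that entered it, so these percentages are not like for like. Of those 18 tRNA genes, 14 were called above 1 TPM and 7 above 10 TPM. The 14 called above 1 TPM are those above 0 in both libraries.

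Among protein genes mt-Co1 stood highest in both libraries. It encodes the catalytic subunit of cytochrome c oxidase (complex IV), the enzyme that reduces oxygen, and had 10164 TPM in replicate 1 and 10769 TPM in replicate 2 with rank 4 of all symbols in both. mt-Co2, the subunit that takes electrons from cytochrome c, had 4878 and 5878 TPM, and mt-Co3, a core subunit beside them, 2871 and 2586 TPM in replicate 1 and replicate 2. mt-Cytb, the 1 mitochondrial gene of complex III, was nearly level between the libraries at 4944 and 4704 TPM. The order mt-Co1, mt-Co2, mt-Co3 held in both libraries, and mt-Co2 and mt-Cytb changed places with each other between them. mt-Co3 lay under mt-Cytb, mt-Nd1 and mt-Atp6 in both libraries.

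Complex I, which takes electrons from NADH, has 7 mitochondrial subunits, and these spread over the widest range. mt-Nd1 had 4121 TPM in replicate 1 and 5564 TPM in replicate 2, mt-Nd4 had 2613 and 4397 TPM, and mt-Nd5 had 2546 and 4008 TPM. mt-Nd2 had 401 TPM in replicate 1 and 2023 TPM in replicate 2. mt-Nd6 had 730 and 752 TPM, mt-Nd4l 346 and 450 TPM, and mt-Nd3 183 and 84.2 TPM. mt-Nd3 was the lowest of the 13 protein genes in both libraries, under mt-Co1 by 55.4 times in replicate 1 and 128 times in replicate 2. mt-Nd6 is the 1 protein gene on the minus strand, and its sequence holds 22.2% A and 28.1% G, against 29.5% to 40.7% A and 5.88% to 16.1% G in the other 12.

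The subunits of ATP synthase (complex V) come from overlapping genes read from a shared messenger RNA. mt-Atp6, the proton channel subunit, had 3454 TPM in replicate 1 and 4348 TPM in replicate 2, and mt-Atp8, a small accessory subunit, had 1133 and 1263 TPM. The ratio of mt-Atp6 to mt-Atp8 was 3.05 in replicate 1 and 3.44 in replicate 2, although TPM is per unit of length and the messenger is shared. The same was seen for the other shared messenger, with a ratio of mt-Nd4 to mt-Nd4l of 7.55 in replicate 1 and 9.77 in replicate 2. In both pairs the shorter gene had the lower value, with 204 bases for mt-Atp8 against 681 for mt-Atp6 and 297 for mt-Nd4l against 1378 for mt-Nd4. The 4 shortest protein genes, mt-Atp8, mt-Nd4l, mt-Nd3 (348 bases) and mt-Nd6 (519 bases), held the lowest 5 values of both libraries together with mt-Nd2. mt-Nd2 (1038 bases) lay under the shorter mt-Atp6, mt-Co2, mt-Co3 and mt-Nd1 in both libraries. Across the 13 protein genes Spearman's rho between length and TPM was 0.53 in replicate 1 and 0.65 in replicate 2, as a description over genes of the same libraries.

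The value of mt-Nd4l is further bound to a nuclear copy. Gm10222, an unprocessed pseudogene on chromosome 1 (24612407 to 24612700, minus strand), was listed with exactly the same values as mt-Nd4l in both libraries, 346 and 450 TPM. Its 294 bases are identical to the first 294 of mt-Nd4l, shown here with the 3 further bases in capitals (chrM:9877-10173, plus strand).
mt-Nd4l: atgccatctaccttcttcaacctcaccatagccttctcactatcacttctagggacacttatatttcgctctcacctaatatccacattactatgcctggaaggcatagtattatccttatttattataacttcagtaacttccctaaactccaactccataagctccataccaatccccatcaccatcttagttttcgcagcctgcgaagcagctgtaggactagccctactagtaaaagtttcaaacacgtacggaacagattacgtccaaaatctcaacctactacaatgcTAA
Reads of these bases cannot be told apart, so the level of mt-Nd4l is uncertain. Together the rows held 692 TPM in replicate 1 and 900.3 TPM in replicate 2, and mt-Nd4 exceeded the sum by 3.78 and 4.88 times, so the sum too stayed under mt-Nd4. A search of annotated transcripts found 17 nuclear ones with at least 90% identity over at least 100 bases to a mitochondrial gene, covering 11 of the 13 protein genes. Of the 17, 2 had a row in the table, Gm10222 and Gm4076. Gm4076 copies part of mt-Nd5 (95.2% identity over 954 bases), with 2.13 TPM in replicate 1 and 12.6 TPM in replicate 2. Copies without a row included 100% identical ones of 876 bases of mt-Nd4, 783 of mt-Co3, 681 of mt-Co2 and 678 of mt-Atp6. A copy of mt-Nd3 was 99.7% identical over 345 bases. How reads shared with these copies were handled cannot be told from the values.

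The messenger sequences themselves varied in how they begin and end. Of the 13 protein genes, 9 start with ATG and 10 end in a complete stop codon. mt-Co3, mt-Nd4 and mt-Cytb do not, and such messengers are known to gain their stop codon from the added poly(A) tail. These 3 had 2586 to 4944 TPM over both libraries.

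The tRNA genes were low and uneven in TPM, with a median of 12.4 TPM in replicate 1 and 11.1 TPM in replicate 2. They are 59 to 75 bases long, and capture of RNAs this short was not tested, so the values need not be the levels of the tRNAs themselves. mt-Ts1, which carries serine, stood apart from the other 21 with 2231 TPM in replicate 1 and 1406 TPM in replicate 2. It held most of the summed TPM of the class, as the other 21 genes together had 674 TPM in replicate 1 and 736 TPM in replicate 2. mt-Ts1 lies on the minus strand directly behind mt-Co1, with which it shares 3 bases, and in human cells the mt-Co1 messenger is known to run on through the complement of this tRNA gene. The ratio of mt-Co1 to mt-Ts1 was 4.56 in replicate 1 and 7.66 in replicate 2, and which strand the reads of mt-Ts1 came from cannot be told apart in these values.

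After mt-Ts1 the highest tRNA genes were mt-Tl1, mt-Tp and mt-Te. mt-Tp, which carries proline and lies last on the map, had 109 TPM in replicate 1 and 215 TPM in replicate 2, and mt-Te, which carries glutamate and lies between mt-Nd6 and mt-Cytb, had 145 and 36.9 TPM. The 8 tRNA genes of the minus strand had a median of 10.4 TPM in replicate 1 and 14.02 TPM in replicate 2, against 17.8 and 8.33 TPM for the 14 of the plus strand, so the order of the strands turned round between the libraries. mt-Ti, mt-Tw, mt-Ta and mt-Td, which carry isoleucine, tryptophan, alanine and aspartate, were listed at 0 in both libraries. In replicate 2 mt-Tn, mt-Tc and mt-Tk, which carry asparagine, cysteine and lysine, had 10.1, 16.99 and 11.6 TPM, and replicate 1 listed all 3 at 0. mt-Tl2, the other leucine tRNA gene, was the reverse, with 29.7 TPM in replicate 1 and a listed 0 in replicate 2.

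The 9 tRNA genes not yet given, among them mt-Tf at the start of the map with 42.4 and 27.4 TPM and mt-Tr (arginine) with 31.8 and 54.0 TPM, lay between 5.39 and 54.0 TPM in both libraries. Some low values of tRNA genes of equal length fell near whole multiples of the lowest among them, and others did not. In replicate 1 the 67-base genes stood at 10.9 TPM (mt-Ty), 21.7 TPM (mt-Tt), 43.5 TPM (mt-Th) and 109 TPM (mt-Tp), the last 3 of which are 2.0, 4.0 and 10.004 times the lowest. In replicate 2 mt-Tt was lowest at 5.60 TPM, mt-Ty and mt-Th both had 11.1 TPM (1.97 times) and mt-Tp stood 38.3 times higher. The 69-base genes mt-Tm and mt-Te had 3.0 and 6.99 times the 5.27 TPM of mt-Tv in replicate 2, but 1.09 and 15.3 times its 9.51 TPM in replicate 1. The 68-base genes mt-Tf and mt-Tg both had 1.33 times the value of mt-Tr in replicate 1. In replicate 2 mt-Tf had 5.08 times the value of mt-Tg. Over genes of equal length, 11 values above the lowest were up to 10 times it, and 7 of these lay within 0.05 of a whole multiple. The tally can miss regular steps where the lowest gene itself stands several steps up, which a factor of 1.33 would allow. Across the 4 lengths and both libraries, the lowest value of the tRNA genes was held by 1 to 4 of the 5 to 15 symbols of that length above 0. Lower values among the other symbols of that length were not sought. For such values a factor between genes, or between the libraries, moves in coarse steps, and the number of reads behind a step is unknown.

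The replicates kept the order of the protein genes better than that of the tRNA genes. Spearman's rho between the libraries was 0.94 across the 13 protein genes and 0.66 across the 22 tRNA genes, as a description across genes of one genome. Of the protein genes 11 of 13 lay within 2-fold, as did 10 of the 14 tRNA genes above 0 in both libraries, against 63.8% of the 16037 genes above 0 in both libraries and 90.8% of the 1643 such genes whose mean reached 100 TPM. The 2 protein genes beyond 2-fold were mt-Nd2 and mt-Nd3, with log2 differences on the log2(TPM + 1) scale (replicate 2 minus replicate 1) of 2.33 and -1.11. Of the 1643 genes, 14 differed by as much as mt-Nd2 or more in either direction (0.852%), mt-Nd2 included. The nearest protein genes on the map differed less, with a log2 difference of 0.43 for mt-Nd1 and 0.08 for mt-Co1, and so did mt-Tm, the tRNA gene that abuts its start, with 0.56. mt-Tw, the tRNA gene at its end, was listed at 0 in both libraries.

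**Figure D3:**
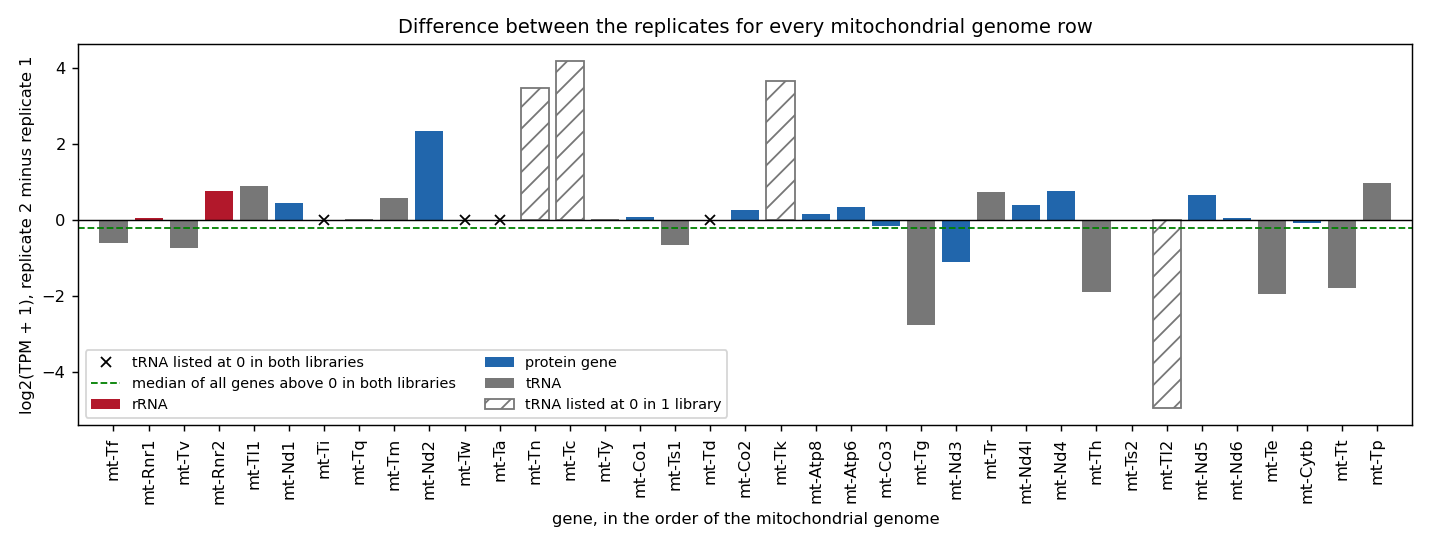
Difference between the replicates in log2(TPM + 1), replicate 2 minus replicate 1 (vertical axis), for the 37 mitochondrial rows in genome order (horizontal axis), coloured by class, with hatched bars where 1 library lists 0, crosses where both do and a dashed line at the median of all genes above 0 in both libraries (-0.22). The other 11 protein genes lie between -0.15 and 0.75, mt-Nd2 stands at 2.33 and mt-Nd3 at -1.11, and tRNA genes reach from -4.94 to 4.17.

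Of the 13 protein genes, 10 were higher in replicate 2, with a median log2 difference of 0.27, while the median of all genes above 0 in both libraries was -0.22. Relative to that shift the protein genes were higher in replicate 2 by 0.49, mt-Rnr2 by 0.98 and mt-Rnr1 by 0.27. For the 1643 such genes whose mean reached 100 TPM, as that of each of these rows did, the median was -0.14. Against those genes the excess is smaller. Among markers of other cells, 7 of 9 rod genes and 5 of 6 Muller glia genes were higher in replicate 2. Their median log2 differences were 1.02 and 0.61. Of 3 red blood cell genes 1 was higher (median -0.35), as were 4 of 7 type 5 genes (0.28) and 2 of 5 ON bipolar genes (-0.20). The rod genes did not move as one. Gnat1 had 14.3 TPM in replicate 1 and 113 TPM in replicate 2, but Gngt1, the most abundant of them, had 965 and 639 TPM, Sag 248 and 248 TPM, and Nr2e3 4.6 and 0.91 TPM, a range of log2 differences from -1.55 to 2.89. Rlbp1 of Muller glia had 2.31 and 3.74 TPM. Their part in the mitochondrial values was not tested. In such bulk samples a different number of cells of a type and a different amount of RNA per cell cannot be told apart.

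Mitochondrial genes stood above the nuclear genes whose products they assemble with. The median of the 13 mitochondrial protein genes was 2613 TPM in replicate 1 and 4008 TPM in replicate 2, against 139 and 143 TPM for the 78 nuclear genes of complexes I, III, IV and V, which is 18.8 and 28.01 times as high. On the log2(TPM + 1) scale the medians differed by 4.22 in replicate 1 and 4.80 in replicate 2, and by 4.49 on averaged values. By complex the ratio of the medians was 6.90 and 17.2 for complex I, 43.0 and 43.7 for complex III, 31.0 and 23.2 for complex IV, and 11.6 and 13.9 for complex V in replicate 1 and replicate 2. The summed TPM of the 13 mitochondrial genes was 38385 and 46826, against 17512 and 17909 for the 78 nuclear ones.

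The ranges overlapped in complexes I and V. Of the 7 mitochondrial genes of complex I, 4 in replicate 1 exceeded the highest nuclear one there, which was Ndufs3 at 445 TPM, a gene of the arm that carries electrons to the membrane. mt-Nd3, at 84.2 TPM in replicate 2, fell under the nuclear complex I median of 118 TPM there. In complex IV all 3 mitochondrial genes exceeded the highest nuclear one in both libraries, which was Ndufa4 at 635 TPM in replicate 1 and Cox4i1 at 696 TPM in replicate 2. In complex III mt-Cytb exceeded Uqcrh, a hinge protein gene at 451 TPM in replicate 1 and 415 TPM in replicate 2. In complex V, Atp5b, the catalytic beta subunit, had 3291 TPM in replicate 1 and 3634 TPM in replicate 2, under mt-Atp6 and over mt-Atp8 in both.

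**Figure D4:**
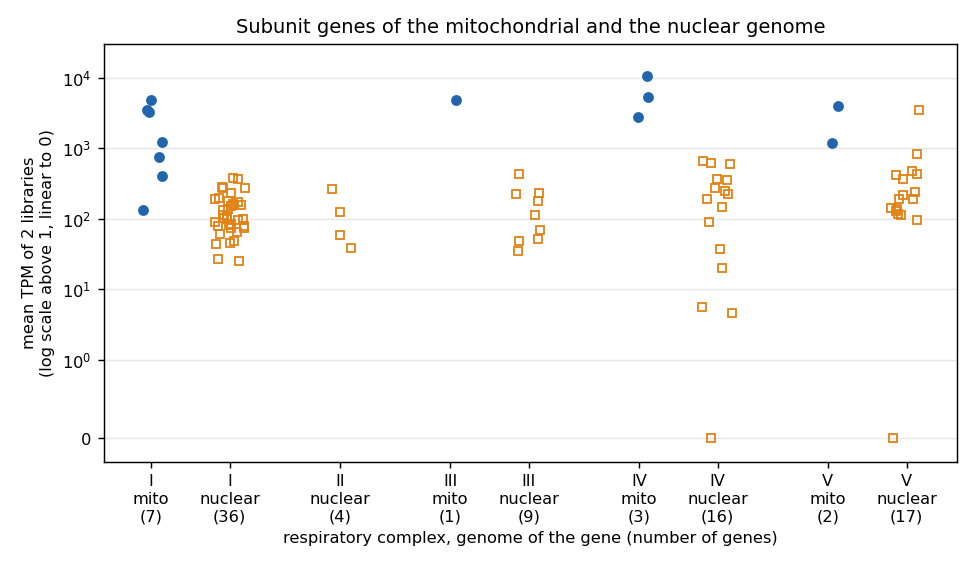
Mean TPM over 2 libraries (vertical axis, logarithmic above 1 and linear down to 0) of mitochondrial (filled circles) and nuclear (open squares) subunit genes of each respiratory complex, with small sideways offsets to part the points. The 3 mitochondrial genes of complex IV and mt-Cytb of complex III stand above all nuclear genes of their complex, while in complex V Atp5b at 3463 TPM lies between mt-Atp6 at 3901 TPM and mt-Atp8 at 1198 TPM.

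Nuclear subunits were expressed almost without exception. Called above 1 TPM were 36 of 36 genes of complex I, 4 of 4 of complex II, 9 of 9 of complex III, 13 of 16 of complex IV and 16 of 17 of complex V (limma, adjusted p under 0.05), beside 55.5% of all genes tested. Complex II, which has no mitochondrial gene, had a median of 73.5 TPM in replicate 1 and 109 TPM in replicate 2, led by Sdha, its flavoprotein, at 262 ± 33.4 TPM (SD, n = 2). Cox6a2 of complex IV, a form known from muscle, and Atp5g2 of complex V were listed at 0 in both libraries, and Cox7a1, another muscle form, had 9.13 TPM in replicate 1 against a listed 0 in replicate 2. The other genes for the same ring subunit as Atp5g2 were present, with Atp5g3 at 829 ± 141 TPM and Atp5g1 at 94.8 ± 73.0 TPM.

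The genes that copy, cut and translate mitochondrial RNA were expressed at lower levels than the respiratory subunits. Of 9 transcription genes 9 were called above 1 TPM, where 55.5% of all genes tested were, and 2 above 10 TPM, where 32.4% were. They were led by Mterfd1, of the mitochondrial termination factor family, at 90.8 ± 13.4 TPM and Polrmt, the mitochondrial RNA polymerase, at 37.5 ± 5.05 TPM, with Tfb2m, its partner at promoters, at 21.4 ± 16.8 TPM (SD, n = 2). Of 19 genes of RNA processing and turnover 14 were called above 1 TPM (73.7%), and 17 had at least 1 TPM in both libraries. Slirp, which binds and stabilises mitochondrial messengers, led at 178 ± 23.9 TPM, followed by Grsf1, an RNA-granule protein, at 121 ± 30.6 TPM. Hsd17b10, a subunit of the enzyme that cuts tRNAs at their 5′ end, stood at 0.595 ± 0.177 TPM and was not called.

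Of 76 mitochondrial ribosomal protein genes 75 were called above 1 TPM (98.7%, beside 55.5% of all genes tested). Their median was 35.7 TPM in replicate 1 and 29.5 TPM in replicate 2, with Mrpl48 highest at 366 ± 128 TPM (SD, n = 2). The messenger RNAs for the proteins of this ribosome thus stood far under its rRNAs, at 38010 TPM or more. The proteins themselves were not measured. Of 22 genes that charge mitochondrial tRNAs 17 were called above 1 TPM (77.3%), and 21 had at least 1 TPM in both libraries. Lars2, the leucine synthetase, led at 300 TPM in replicate 1 and 699.7 TPM in replicate 2. Pars2 (proline) at 3.46 ± 3.60 TPM and Vars2 (valine) at 3.07 ± 2.05 TPM were lowest and not called. Of 7 genes of mitochondrial DNA maintenance 5 were called above 1 TPM (71.4%), and all 7 had at least 1 TPM in both libraries. Ssbp1, which coats single-stranded DNA, was highest at 143 ± 23.4 TPM.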

How the data were processed

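The authors deposited 1 table of TPM with a column per library, and no columns were left unused. Per the submitters' processing notes, RSEM 1.2.28 and TopHat2 2.0.10 were used with the build mm10, with no role stated for each. The sources used here do not state the annotation release, filters or strand use. The column of replicate 1 spells its gene with letters exchanged and was matched by replicate number. Both columns sum to about 1000000, so a larger rRNA share lowers every other TPM; without depth, counting intervals cannot be had. Levels above 1 and 10 TPM were tested with limma 3.58.1 (R 4.3.3; intercept-only model, variance trend, pseudocount 1, one-sided, Benjamini-Hochberg adjustment over 19968 genes). The variance came from the trend alone, and single p-values are not printed. Tested on simulated data, the fit missed many genes set not far above a line. Lengths, coordinates and sequences are from GENCODE M21, matching 37 of 37 rows by symbol; nuclear copies were sought with blastn 2.17.0. Python 3.11.15, pandas 2.3.3 and matplotlib 3.10.9 were used. Nuclear genes named are the 3 highest and 2 lowest of a list by mean TPM, those listed at 0 in 1 library, and markers; Atp5g1, Atp5g3 and the nuclear copies are discussed for their values. Some genes that this rule names are not reported here. The members and lists were chosen with earlier results of these data known. Per the labels, the libraries are biological replicates.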

Additional observations from a re-analysis of the deposited data

How the results depend on the processing

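Over 147 values recomputed from both libraries, 139 stayed within the spread between the replicates or, for counts, within 1.5 times. Most of these were counts or shares, which have no direction to change. Counts that already held all members of a class or list had little room to move. The differences between classes and between replicates kept their sign. Leaving out a library says nothing on the stability of a mean, since with 2 libraries the mean then moves by less than their SD whatever the values. No paired analysis was possible because there is a single group. The count of tRNA genes above 10 TPM, 7 by limma, was 13 to 14 at or over the line when either library was left out and no test could be made. Without the rRNA rows in the denominator the mitochondrial share fell to 5.43%, of which protein genes held 5.13%. Weighted by annotated length, TPM of the mitochondrial rows divided into 82.8% rRNA, 17.1% protein genes and 0.0659% tRNA. With only rows above 0 in both libraries, protein genes exceeded tRNA genes by 7.35 in median log2(TPM + 1), against 8.04 with all rows. The log2 differences between replicates relative to the median gene were 0.49 for protein genes and 0.27 for mt-Rnr1, by construction larger than as deposited. With depth unknown, no counting error could be set on the low tRNA values.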
